A study of Homo sapiens with 3 samples.

Results

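The 33 genes described here encode enzymes of cholesterol and fatty acid synthesis, the regulators that set their transcription, and 2 sterol carriers. They were taken by name from the pathway, not by their values, and were found on the arrays by matching the transcript accession of each probe to a RefSeq symbol. All 33 were among the 21614 genes that could be named on the array, and 31 of them were measured on every array. The cells were HCT116, an established human colon cancer cell line, and each culture was transfected for 48 h with 10 nM of control siRNA, siRNA #7 or siRNA #8. Names of the targeting siRNAs in the array files carry other numbers than #7 and #8, and assignment to siRNA #7 or #8 rests on the labels. Both targeting siRNAs were directed at the junction of the first and last exons of *HOXA5* short RNA, a transcript of the *HOXA6*-*HOXA5* locus, and the control was a non-targeting siRNA from a supplier. The comparison asks how silencing of that RNA changes transcript levels. RNA from each culture (400 ng) was labeled with a single dye and hybridized to an Agilent SurePrint G3 array. Each condition has 1 array, so that no ratio has a replicate check and ratios are given as descriptions of these arrays, without p-values.

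The siRNAs overlap in sequence and are shown because both treated cultures are named by them. In the lines here the capitals mark the 17 bases that both share, and each siRNA of 21 bases has 4 bases that the other lacks.
siRNA #7: gagaAACUGAAAGACAACAUA
siRNA #8: AACUGAAAGACAACAUAggcg

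Cells make cholesterol from acetyl-CoA through mevalonate, isoprenoids, squalene and a series of sterol intermediates, and they make fatty acids from acetyl-CoA through malonyl-CoA. Most enzymes of both routes are transcribed under the sterol regulatory element-binding proteins, SREBPs, which are held in the endoplasmic reticulum by SCAP and the INSIG proteins when sterols are plentiful and reach the nucleus after cleavage when sterols are scarce. Genes of the mevalonate and sterol route are mainly targets of *SREBF2*, and genes of fatty acid synthesis are mainly targets of *SREBF1*. Growing cancer cells use these routes to supply membrane lipid.

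Levels are log2 spot intensities relative to the 75th percentile of their array. These percentiles, in the order control siRNA, siRNA #7, siRNA #8, were intensities of 52.8, 42.1 and 42.8. A probe was used if it was well above background on all 3 arrays, and the brightest such probe stood for its gene, which gave 12031 genes. Intensities of single genes are quoted in that same order before this scaling, and ratios are those after it. The error given with a ratio is the spot-to-spot SD of the ratio, estimated from 902 probes printed 10 times on each array, and it leaves out the variation between cultures. Its median over the 31 genes was 0.15 for siRNA #7 against control siRNA and 0.17 for siRNA #8 against control siRNA. A 1.5-fold difference, 0.58 on the log2 scale, was the threshold for naming a gene as lower or higher. It was chosen, since no test can set a threshold with 1 array per condition. Of 8 colon epithelial markers, 6 were well above background on all arrays, including *EPCAM*, *KRT8*, *KRT18*, *KRT19* and *CDX2*, while *KRT20* and *VIL1* were not on any. None of 4 leukocyte and 3 endothelial markers and 1 of 4 fibroblast markers was well above background on all arrays. The log2 ratio of the *HOXA5* probe was -0.36 (spot-to-spot SD 0.25) for siRNA #7 and -0.23 (SD 0.26) for siRNA #8. Which *HOXA5* transcripts this probe detects was not tested.

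With siRNA #7 the lipid synthesis genes were shifted down as a group. Of the 31 measured genes, 10 were lower by 1.5-fold or more relative to control siRNA and 0 were higher by as much. Over all 12031 genes, 6.93% were at least 1.5-fold lower and 7.56% at least 1.5-fold higher. The median log2 ratio of the 31 genes was -0.42, beside 0.014 for all genes, and 24 of the 31 had a ratio below 0. When the median of the surrounding spots was taken off each spot, a check for uneven signal on the array, 8 were lower and 1, *SCD*, was higher. Of all genes, 6.41% were then lower and 6.87% higher. *MVD* alone was at least 2-fold lower, where 1.72% of all genes were. These genes share the same control array in both siRNA comparisons, so their values with siRNA #7 and siRNA #8 are given side by side and not as independent measurements.

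**Figure D1:**
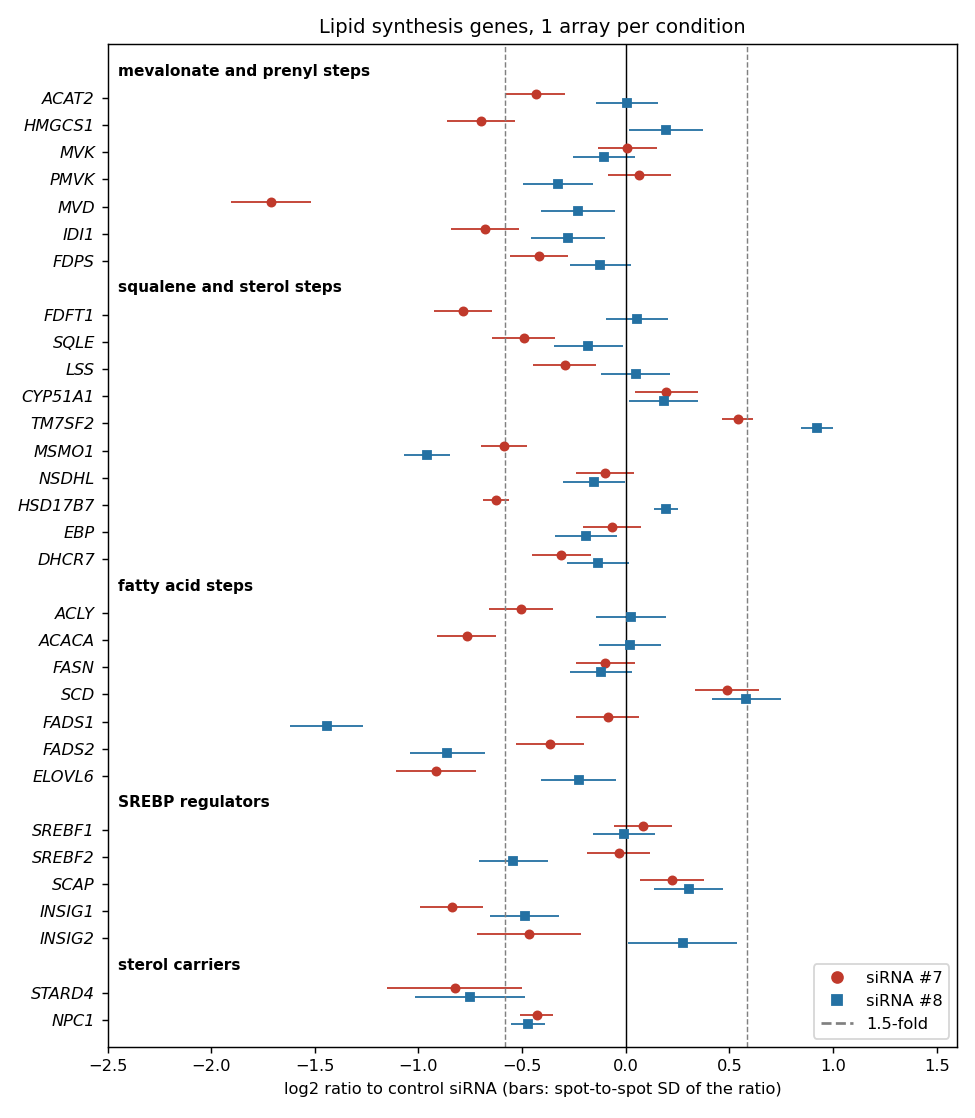
Log2 ratios to control siRNA of the 31 measured genes with siRNA #7 (circles) and siRNA #8 (squares), grouped by role, with bars for the SD between spots and dashed lines at 1.5-fold. Most circles lie left of 0, with *MVD* at -1.71, and the leftmost square is *FADS1* at -1.44.

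In the mevalonate and prenyl steps, 3 of 7 measured genes were at least 1.5-fold lower with siRNA #7 and none was with siRNA #8. Over all genes, 6.93% and 10.3% were, so with 7 genes a count of none is near the share of all genes. *MVD*, which encodes the decarboxylase that yields isopentenyl diphosphate, had intensities of 336, 81.7 and 232. Its level was 3.28-fold lower with siRNA #7 (log2 ratio -1.71, SD 0.19), and its log2 ratio with siRNA #8 was -0.23 (SD 0.18). The *MVD* spot lies near the edge of the array, at column 161 of 164, and the median log2 ratio of its 14 neighbouring spots was -0.64 with siRNA #7. Once that median was removed, the *MVD* ratio was -1.06. *HMGCS1*, the synthase that condenses acetyl-CoA units on the way to mevalonate, had intensities of 306, 151 and 284. Its log2 ratio was -0.70 (SD 0.16) with siRNA #7 and 0.19 (SD 0.18) with siRNA #8, so the siRNA #7 array was low and the others were alike. *IDI1*, the isomerase that makes the allylic isoprenoid unit, had intensities of 348, 173 and 232, and log2 ratios of -0.68 (SD 0.16) and -0.28 (SD 0.18).

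The other genes of these steps were under the threshold. *ACAT2*, the thiolase that supplies acetoacetyl-CoA, had a log2 ratio of -0.44 with siRNA #7, against 0.0048 for siRNA #8. *FDPS*, the farnesyl diphosphate synthase, had -0.42 and -0.12. The kinases lay near 0 with siRNA #7, at 0.0078 for *MVK* and 0.066 for *PMVK*, and at -0.11 and -0.33 with siRNA #8. With scaling on spike-in controls, which lowers all ratios of an array alike, the siRNA #7 values went to -0.32 and -0.26, and with normexp background correction that of *MVK* went to -0.33. Within the mevalonate route the low values with siRNA #7 were thus those of *HMGCS1*, *MVD* and *IDI1* and not those of the kinases that act between them. *GGPS1*, which makes geranylgeranyl diphosphate, had a dim probe, with an intensity of 14.3 on the control siRNA array and a log2 ratio of -0.19 with siRNA #7, and it was not well above background with siRNA #8. The control value was 1.65-fold higher than the siRNA #8 value. Here the siRNA #8 value is the higher of the probe's own signal and the dimmest signal well above background on that array. For *GGPS1* it is the probe's own signal, and spot-to-spot error was not taken off.

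Among the squalene and sterol steps, 3 of 10 measured genes were at least 1.5-fold lower with siRNA #7, beside 6.93% of all genes. The array values fell into different patterns. *FDFT1*, the squalene synthase, had intensities of 2762, 1278 and 2323. Its log2 ratio was -0.79 (SD 0.14) with siRNA #7 and 0.053 (SD 0.15) with siRNA #8. The 13 neighbouring spots had a median of -0.28 with siRNA #7, and the *FDFT1* ratio after their removal was -0.49, under the threshold. *HSD17B7*, a sterol ketoreductase, is represented by 3 passing probes, of which the brightest is printed on 10 spots. The spots of that probe ranged in log2 level from 1.31 to 1.44 with control siRNA, from 0.53 to 0.98 with siRNA #7 and from 1.48 to 1.69 with siRNA #8. No spot with siRNA #7 reached the lowest spot of either other array. The spots of an array repeat the same RNA sample, so their separation does not measure variation between cultures. How many other probes printed 10 times separate in this way was not counted. The log2 ratio was -0.63 (SD 0.06) with siRNA #7, and the dimmer probes gave -0.33 and -0.75. The siRNA #7 value was under the threshold with normexp, at -0.43, and as the mean of the 3 probes, at -0.57. With siRNA #8 the 3 probes gave 0.19, 0.43 and 0.085, so each probe placed siRNA #7 lowest.

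*MSMO1*, the methylsterol monooxygenase, was low with both siRNAs. Its spots ranged in log2 level from -0.29 to 0.048 with control siRNA, from -1.12 to -0.48 with siRNA #7 and from -1.75 to -0.66 with siRNA #8. The control spots did not overlap with those of either siRNA array, while the spots of the 2 siRNA arrays overlapped. As for *HSD17B7*, this compares repeats of single RNA samples, and the share of other probes that separate was not counted. Its log2 ratios were -0.59 (SD 0.11) and -0.96 (SD 0.11), and with normexp, which raises dim signals toward a common floor, they were -0.20 and -0.32. *TM7SF2*, a sterol reductase of the endoplasmic reticulum, was the 1 gene of these steps past the threshold upward, with siRNA #8. Its spots rose in order of array without overlap, from 0.62 to 0.96 with control siRNA, from 1.17 to 1.45 with siRNA #7 and from 1.53 to 1.77 with siRNA #8. Here too the spots repeat single RNA samples, and the share of other probes that separate was not counted. The log2 ratios of *TM7SF2* were 0.54 (SD 0.08) and 0.92 (SD 0.08), which makes it 1.89-fold higher with siRNA #8. Both stayed above 0 under every scaling tried, and with normexp that with siRNA #8 was 0.56.

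**Figure D2:**
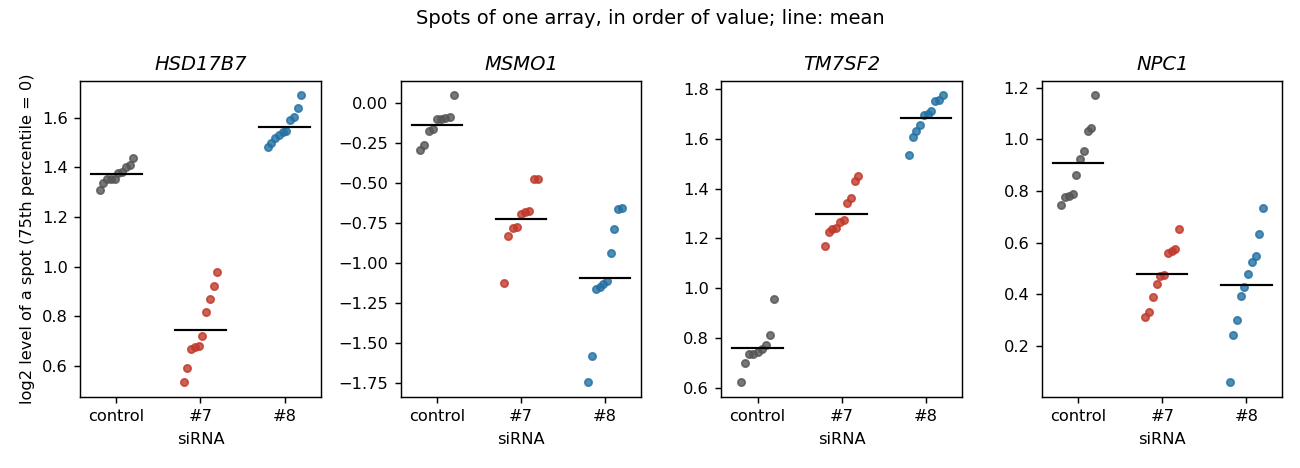
Log2 level of each spot (0 is the 75th percentile of the array) for the 4 genes whose probe is printed on 10 spots, with a line at the mean of the spots; the spots of 1 array share 1 RNA sample. *HSD17B7* is low on the siRNA #7 array only, the control spots of *MSMO1* and *NPC1* lie above those of both siRNA arrays, and those of *TM7SF2* lie below.

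The remaining sterol genes were under the threshold with both siRNAs. *SQLE*, the squalene epoxidase, had log2 ratios of -0.49 and -0.18 in the order siRNA #7, siRNA #8. *LSS*, the lanosterol synthase, had -0.29 and 0.049, and a dimmer *LSS* probe had 0.36 (SD 0.40) and -0.043 (SD 0.41). *DHCR7*, which encodes the last reductase of the route, had -0.31 and -0.13. *NSDHL* had -0.10 and -0.15, and *EBP*, the sterol isomerase, had -0.066 and -0.19. *CYP51A1*, the lanosterol demethylase, lay at 0.20 and 0.18, and at -0.13 and -0.057 with spike-in scaling. These values show that low ratios with siRNA #7 were found at some steps of the sterol route and not at all of them. *SC5D*, a sterol desaturase, had intensities of 13.8 and 9.18 on the first arrays (log2 ratio -0.26). With siRNA #8 it was not well above background. The control value was 1.605-fold above the dimmest signal well above background on that array, with no spot-to-spot error taken off.

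Of the 7 fatty acid genes, 2 were at least 1.5-fold lower with siRNA #7 and 2 with siRNA #8. Over all genes, 6.93% and 10.3% were. They were *ELOVL6* and *ACACA* with siRNA #7 and *FADS1* and *FADS2* with siRNA #8. How many genes in general are lower with only 1 siRNA was not counted. *ELOVL6*, which elongates palmitate, had intensities of 153, 64.5 and 106. Its log2 ratio was -0.92 (SD 0.19) with siRNA #7 and -0.23 (SD 0.18) with siRNA #8, and the first was -0.56 with normexp. *ACACA*, the acetyl-CoA carboxylase that commits carbon to fatty acids, had intensities of 2880, 1349 and 2367. Its log2 ratio was -0.77 (SD 0.14) with siRNA #7 and 0.020 (SD 0.15) with siRNA #8. However, the *ACACA* spot lies at column 10, and the median log2 ratio of its 16 neighbours was -0.75 with siRNA #7, so that the ratio after their removal was -0.0090. A second, dimmer *ACACA* probe elsewhere on the array had log2 ratios of -0.51 (SD 0.25) and 0.20 (SD 0.24). *ACLY*, the citrate lyase that supplies acetyl-CoA, had -0.51 with siRNA #7 and 0.025 with siRNA #8. *FASN*, the fatty acid synthase itself, had -0.098 and -0.12.

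The 3 desaturases differed among themselves. *FADS1*, a desaturase of polyunsaturated fatty acids, had intensities of 938, 704 and 280. Its log2 ratio was -0.088 (SD 0.15) with siRNA #7 and -1.44 (SD 0.18) with siRNA #8, a 2.72-fold lower level with siRNA #8. The siRNA #7 value was -0.45 with normexp, -0.41 with spike-in scaling and -0.41 after removal of neighbouring spots. *FADS2*, its partner in the same route, had intensities of 228, 141 and 102, and log2 ratios of -0.36 (SD 0.16) and -0.86 (SD 0.18). The genes are neighbours on opposite strands of chromosome 11, and their listed starts lie 599 to 800 bases apart in GRCh38.p14. The siRNA #8 array was the lowest for each, and the *FADS1* ratio with siRNA #8 stayed between -1.68 and -1.39 under the 8 alternatives of scaling, background, probe choice and array position. *FADS2* went from -0.86 to -0.56 after removal of neighbouring spots. *SCD*, which makes monounsaturated fatty acids, had log2 ratios of 0.49 (SD 0.15) and 0.58 (SD 0.17), just under the threshold, and stayed above 0 with every scaling.

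Of the SREBP regulators, the transcription factor genes did not follow the low values of the enzymes with siRNA #7. *SREBF1* had intensities of 4384, 3700 and 3536, with log2 ratios of 0.082 (SD 0.14) and -0.0068 (SD 0.15). A second *SREBF1* probe had 0.22 and 0.13. With spike-in scaling the brighter probe had -0.24 and -0.25. *SREBF2* had intensities of 621, 483 and 346, and log2 ratios of -0.034 (SD 0.15) and -0.54 (SD 0.17). *SCAP*, the escort of the SREBPs, had intensities of 534, 497 and 534. Its log2 ratios were 0.22 (SD 0.15) and 0.30 (SD 0.17), of which the first turned to -0.10 with spike-in scaling and to -0.072 with normexp. *INSIG1*, both a retention factor for SCAP and one of the most sterol-responsive SREBP targets, had intensities of 820, 365 and 474. Its log2 ratio was -0.84 (SD 0.15) with siRNA #7 and -0.49 (SD 0.17) with siRNA #8, and the first lay between -1.16 and -0.84 under all 8 alternatives. *INSIG2* has 2 passing probes of nearly equal intensity that disagree. The brighter one had intensities of 71.8, 41.4 and 70.4, with log2 ratios of -0.47 (SD 0.25) and 0.27 (SD 0.26). The other had intensities of 68.0, 34.6 and 27.7, with log2 ratios of -0.65 (SD 0.33) and -0.99 (SD 0.34). Both placed *INSIG2* lower with siRNA #7, and with siRNA #8 no direction can be given.

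Of the 2 sterol carriers, 1 was at least 1.5-fold lower with each siRNA, beside 6.93% of all genes with siRNA #7 and 10.3% with siRNA #8. *STARD4*, a cytosolic sterol transporter, had intensities of 78.8, 35.4 and 37.9. Its log2 ratios were -0.83 (SD 0.33) and -0.75 (SD 0.26), and with normexp both shrank to -0.29 and -0.28. *NPC1*, which exports cholesterol from lysosomes, had 10 spots that ranged in log2 level from 0.74 to 1.17 with control siRNA, from 0.31 to 0.65 with siRNA #7 and from 0.060 to 0.74 with siRNA #8. The lowest control spot lay just above the highest spot of the siRNA #8 array. These spots too are repeats of single RNA samples, and the share of other probes that separate was not counted. The log2 ratios of *NPC1* were -0.43 (SD 0.08) and -0.47 (SD 0.08), under the threshold.

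With siRNA #8, 4 of the 31 genes were lower by 1.5-fold or more, namely *FADS1*, *MSMO1*, *FADS2* and *STARD4*, and 1 was higher, *TM7SF2*. Over all genes, 10.3% were at least 1.5-fold lower and 7.79% at least 1.5-fold higher. Quantile normalization and the percentile over detected probes each gave 4 lower and 2 higher, and normexp gave 4 lower and 0 higher. For all genes, quantile normalization gave 9.98% lower and 8.02% higher, the percentile over detected probes 8.54% and 9.28%, and normexp 7.06% and 1.77%. When a probe well above background on any single array was enough, 6 of 33 were lower, beside 12.1% of all genes. This brings in *GGPS1* and *SC5D*, which passed on the control siRNA and siRNA #7 arrays and not with siRNA #8. Their counting as lower with siRNA #8 thus follows from the filter and adds no support. The median log2 ratio was -0.12, beside 0.0072 for all genes, and lay between -0.36 and -0.069 under the alternatives, and 19 of 31 genes were below 0. *FADS1* was the gene at least 2-fold lower, where 3.03% of all genes were. *STARD4* and *MSMO1* were past the threshold with both siRNAs, in ratios that share the control array. The share of all genes lower with both was not counted. With normexp both genes were under the threshold with each siRNA, at -0.29 and -0.28 for *STARD4* and -0.20 and -0.32 for *MSMO1*.

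**Figure D3:**
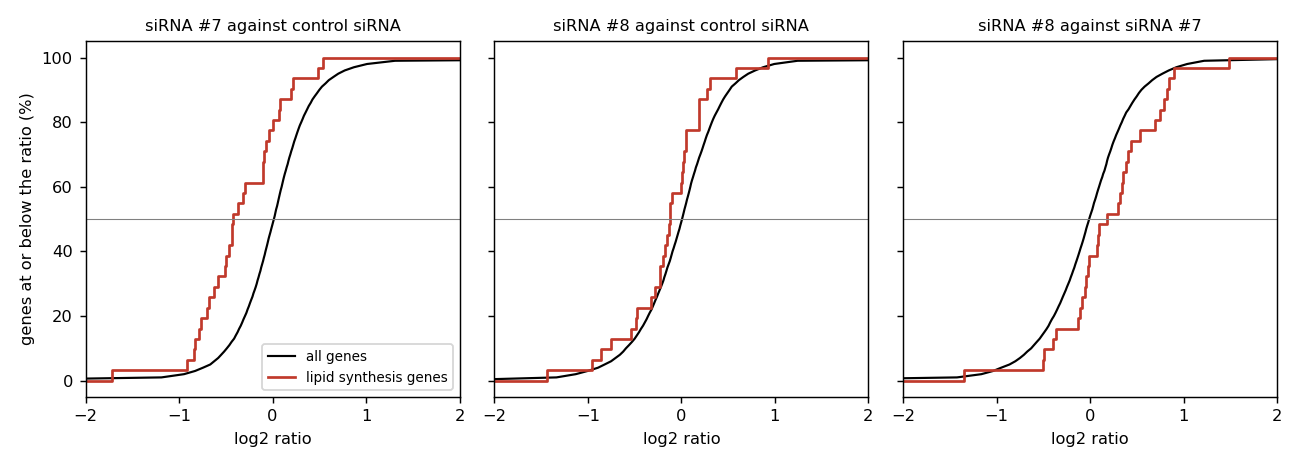
Share of genes, in percent, at or below each log2 ratio for the 31 lipid synthesis genes (stepped line) and all 12031 genes (smooth line), in the 3 comparisons. The stepped line lies left of all genes with siRNA #7 (medians -0.42 and 0.014), close to it with siRNA #8 (-0.12 and 0.0072), and mostly right of it when siRNA #8 is set against siRNA #7 (0.18 and -0.011).

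Setting the siRNA #8 array directly against the siRNA #7 array leaves out the control array. By this ratio 7 of the 31 genes were at least 1.5-fold higher with siRNA #8 and 1 was lower, where 8.89% of all genes were higher and 11.6% lower. The 7 genes were *MVD*, *HMGCS1*, *FDFT1*, *HSD17B7*, *ACACA*, *INSIG2* and *ELOVL6*. *MVD* had a log2 ratio of 1.48 (SD 0.20) and *HMGCS1* of 0.89 (SD 0.17). *FDFT1* had 0.84 (SD 0.15), *HSD17B7* 0.82 (SD 0.06) and *ELOVL6* 0.69 (SD 0.20). With normexp *HSD17B7* was at 0.49 and *ELOVL6* at 0.30, both under the threshold. The *ACACA* ratio of 0.79 was 0.14 after removal of neighbouring spots, and the other *INSIG2* probe had -0.34 in place of 0.74. *FADS1* was the gene that was lower with siRNA #8, with a log2 ratio of -1.35 (SD 0.16). At 2-fold, *MVD* was higher and *FADS1* lower, where 2.29% and 3.35% of all genes were. After removal of neighbouring spots the *MVD* ratio was 0.77, under 2-fold, and with normexp that of *FADS1* was -0.998, just under 2-fold. The median of the 31 genes was 0.18, beside -0.011 for all genes. The gene that stood lowest was *MVD* with siRNA #7 and *FADS1* with siRNA #8.

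The position of a spot on the array moved with part of these values. Of the 31 genes, 27 are represented by a single spot, and 7 by a spot in the first 25 of the 164 columns. For 7 of the 10 genes at least 1.5-fold lower with siRNA #7, neighbouring spots had a median log2 ratio between -0.070 and 0.14. These were *HMGCS1*, *IDI1*, *MSMO1*, *HSD17B7*, *ELOVL6*, *INSIG1* and *STARD4*, and each was still past 1.5-fold after removal of the neighbours. The other genes were *MVD* and *FDFT1*, with neighbours at -0.64 and -0.28, and *ACACA*, whose neighbours at -0.75 were close to its own ratio of -0.77.

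**Figure D4:**
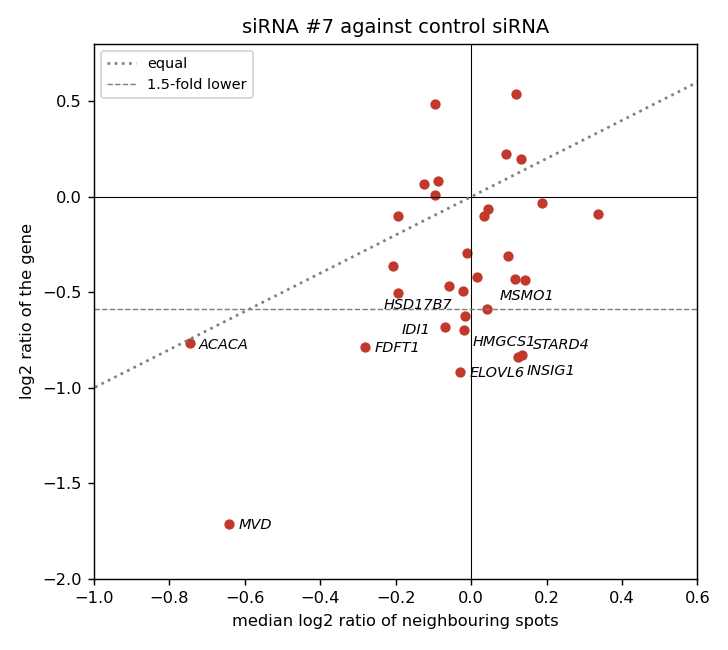
Log2 ratio of each of the 31 genes with siRNA #7 (y axis) against the median log2 ratio of the passing spots within 3 rows and 3 columns of it (x axis), with names for the 10 genes at least 1.5-fold lower. *ACACA* lies close to the dotted line of equal values, *MVD* has low neighbours but lies below that line, and the neighbours of *INSIG1* and *STARD4* are at 0.12 and 0.14.

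Promoter sequence was read for 29 of the 33 genes from RefSeq promoters of GRCh38.p14. *FDFT1*, *SQLE*, *ACAT2* and *FASN* had no entry. In the 250 bases before each start, 20 of the 29 genes (69.0%) held CCAAT on either strand. Of the 27305 genes with an entry, 37.0% did, and of the 35116 single promoters, 32.0% did. This box is bound by NF-Y, a known partner of the SREBPs. The share over all genes includes genes not measured here, and a gene counted if any of its listed starts held the box. Of the 9 genes at least 1.5-fold lower with siRNA #7 that had an entry, 8 held it, all but *ELOVL6*, and of the 18 other measured genes 10 did. The median log2 ratio with siRNA #7 was -0.46 over the 18 measured genes with the box and -0.088 over the 9 without. With siRNA #8 the medians were -0.13 and -0.23. Those without it include *FADS1*, *FADS2*, *NPC1*, *SREBF1*, *SCAP* and *INSIG2*, so box and role cannot be told apart. A link between the box and the ratios was not tested. A match of these letters is a description of the sequence and not a binding site. The 8 boxes nearest to a start are shown with 12 bases on either side, because these genes are among the 10 that were at least 1.5-fold lower with siRNA #7, *ACACA* with the limit of array position given above. Each is written 5′ to 3′ on the strand of the gene, with CCAAT, or its reverse complement ATTGG, in capitals.
*HMGCS1*, chr5:43313496-43313524, minus strand: ctaccggccgcgATTGGctgtgggagcca
*MVD*, chr16:88663160-88663188, minus strand: ggctcgcacgggCCAATcctgtggtagcg
*IDI1*, chr10:1048957-1048985, minus strand: ctggcgcgagcgATTGGctgcgcggcccg
*MSMO1*, chr4:165327623-165327651, plus strand: agctctcgcaggCCAATaacgacaggacg
*HSD17B7*, chr1:162790638-162790666, plus strand: tggcggactgagATTGGagggatcagctc
*ACACA*, chr17:37299887-37299915, minus strand: ttatttgttttgATTGGatctcagaaatt
*INSIG1*, chr7:155297696-155297724, plus strand: cgccggcctcccATTGGttgcggccgcct
*STARD4*, chr5:111512649-111512677, minus strand: ctcccgcgccagCCAATccgaacaagcgc

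The boxes lie between 34 bases (*MSMO1*) and 170 bases (*INSIG1*) before the start, and that of *ACACA* stands before one of several listed starts of the gene. A form of the sterol regulatory element with a single free base, TCACNCCAC, was searched on both strands of the same windows. Other forms of the element were not searched. It was found in 1 of the 29 genes, *SREBF2*, beside 1.09% of all genes with an entry. The *SREBF2* match is shown because it is the sole one, with the matched letters in capitals.
*SREBF2*, chr22:41832962-41832990, plus strand: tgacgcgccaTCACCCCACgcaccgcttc

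Other genes of lipid metabolism, listed by role and not by their values, were counted in the same way. Of 16 measured genes of fatty acid activation, elongation and SREBP processing, 4 were at least 1.5-fold lower with siRNA #7 and 1 with siRNA #8, beside 6.93% and 10.3% of all genes, with medians of -0.26 and 0.0038. Those with siRNA #7 were *ACSL3*, *ACSL4*, *ME1* and *MBTPS1*, named after their values were seen, and with normexp *ACSL4* and *ME1* were both at -0.47, under the threshold. *ACSL3*, an acyl-CoA synthetase, was low with both siRNAs, with intensities of 188, 71.7 and 44.7 and log2 ratios of -1.07 (SD 0.19) and -1.77 (SD 0.21). *MBTPS1*, the first protease that cleaves the SREBPs, had intensities of 687, 344 and 561 and a log2 ratio of -0.67 (SD 0.15) with siRNA #7. Among 6 measured genes of sterol storage and handling, *SOAT1* and *SCARB1* were at least 1.5-fold lower with siRNA #7 and *LIPA* with siRNA #8, with medians of -0.18 and -0.027 for the list. *SOAT1* went from -0.95 to -0.16 with normexp. *LIPA*, the lysosomal acid lipase, had intensities of 576, 454 and 77.9, and a log2 ratio of -2.58 (SD 0.21) with siRNA #8.

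The 9 genes of prenyl use had medians of -0.16 with siRNA #7 and -0.27 with siRNA #8, and 1 was at least 1.5-fold lower with each. The 11 genes of fatty acid oxidation had medians of -0.10 and 0.18, with 1 lower with each and 1 higher with siRNA #8. For sterol efflux, 4 of 6 genes were measured, with medians of 0.29 and 0.076. One of them, *NR1H3*, an oxysterol receptor that drives cholesterol export, was at least 1.5-fold higher with siRNA #7, with a log2 ratio of 0.79 (SD 0.15). Over all genes, 7.56% were at least 1.5-fold higher with siRNA #7. *NR1H3* was named after its values were seen, as were *SOAT1*, *SCARB1* and *LIPA*.

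**Figure D5:**
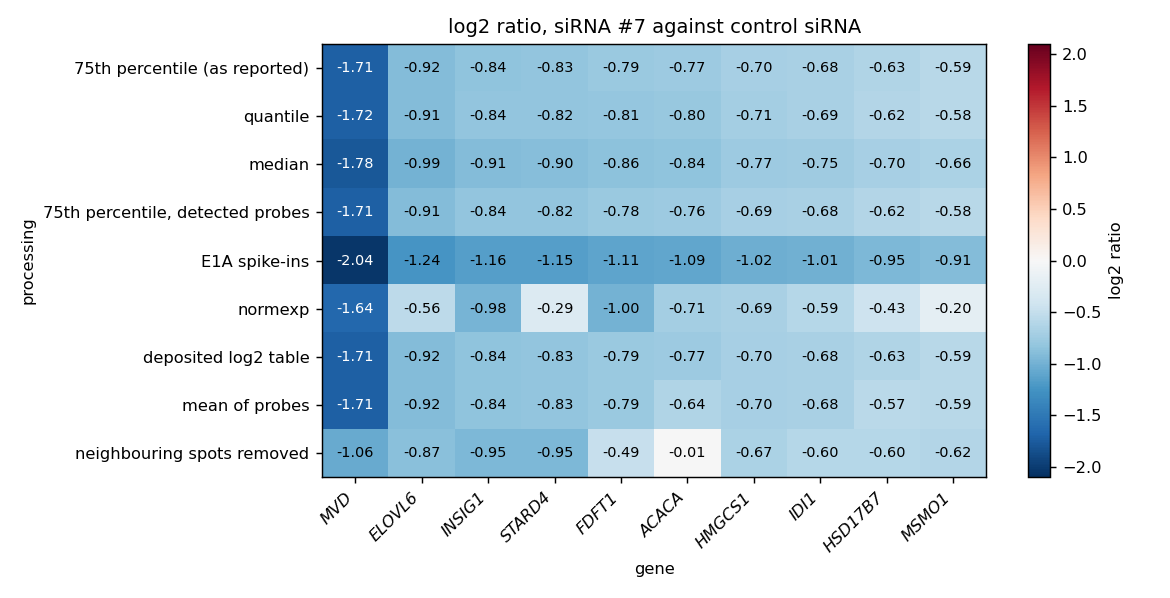
Log2 ratio with siRNA #7 of the 10 genes at least 1.5-fold lower (columns) under the reported processing and 8 alternatives (rows), with colour for the ratio. Every value is below 0, the values of *MSMO1* and *STARD4* shrink to -0.20 and -0.29 with normexp, and that of *ACACA* goes to -0.0090 after removal of neighbouring spots.

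All 10 of these genes kept a ratio below 0 with siRNA #7 under the 8 alternatives that were applied to single genes. They were picked for low ratios, and several alternatives shift all genes of an array alike, so few could reverse a value. In a limma fit that joined both siRNA arrays as 1 silenced group, 0 of the 31 genes had an adjusted p under 0.05, as had 0.00831% of all genes (1 gene), and 1 of the 31, *STARD4*, had an unadjusted p under 0.05, beside 3.22% of all genes. That fit averages over siRNAs that differed in these genes and rests on 1 control array.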

How the data were processed

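The authors scanned the arrays with Agilent Feature Extraction 11.5.1.1, and the deposited intensity of each spot is background-subtracted and not scaled between arrays. They also deposited a table of log2 values from GeneSpring 14.9, with flags and the 20th percentile as filters. Its differences between arrays have a slope of 1.00 to those of the intensities, with shifts that match the 75th percentile, and its probes are centred, so that every column has a median of 0.

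Spots with an outlier flag (313 to 413 per array) were left out, spots of a probe were averaged on the log2 scale, and the 75th percentile over all 50599 gene probes was subtracted. A probe passed if at or above the 20th percentile on 2 or more arrays and if 50% of its spots were well above background on each of the 3 arrays (18121 probes). No spot was saturated. Symbols came from RefSeq (GRCh38.p14) by accession without versions, for 30004 probes. The array design was annotated on another build, so coordinates are given for promoters only. The spot-to-spot SD was pooled within 6 signal ranges, and precision is limited by how few arrays there are. The genes, lists and tests were chosen with earlier results of these data known. Genes past 1.5-fold in any comparison and the SREBP regulators are given in full. The steps were tested on simulated data. Alternatives were quantile, median, detected-probe and E1A spike-in scaling (10 probes), normexp (offset 50) on median spot signals, since the files used here hold no mean ones, the deposited log2 values, the mean of a gene's probes, removal of the median of neighbours within 3 rows and 3 columns, other filters, 2-fold, and limma 3.58.1 in R 4.3.3. Python 3.11.15, numpy 2.4.6 and pandas 2.3.3 were used.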

Additional observations from a re-analysis of the deposited data

How the results depend on the processing

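No paired analysis was possible because a condition is represented by a single array. Under the 8 alternatives applied to single genes, the 23 values past 1.5-fold in the 3 comparisons gave 184 values. All kept the reported direction, and 166 were still past 1.5-fold. The 23 values were picked for their size, so a kept direction says little. Median, detected-probe and spike-in scaling shift all genes of an array alike, and the mean of probes changes only genes with several probes. The other *INSIG2* probe taken alone reversed the ratio of siRNA #8 to siRNA #7, at -0.34 in place of 0.74. Normexp left 13 of the 23 values past 1.5-fold and removal of neighbouring spots 19. With E1A spike-in scaling, the median log2 ratio of the lipid synthesis genes went to -0.74 with siRNA #7 and to -0.36 with siRNA #8. The counts past 1.5-fold went from 10 to 19 and from 5 to 8. Under that scaling 22.5% of all genes were at least 1.5-fold lower with siRNA #7 and 2.68% higher. With siRNA #8, 20.6% were lower and 3.51% higher. The scaling adds the same constant to every gene, and the median of all genes went to -0.31 and -0.23, so the difference between the lipid synthesis genes and all genes stayed at -0.43 and -0.13. At 2-fold, 1 gene was past the threshold with siRNA #7, 1 with siRNA #8 and 2 between siRNA #8 and siRNA #7. With normexp, 5 genes were past 1.5-fold between siRNA #8 and siRNA #7, in place of 8. Of all genes, 4.69% were then lower and 3.35% higher. The other alternatives kept each median in its direction and each count within 1.5 times. The medians moved more: with siRNA #8 to -0.26 with normexp, -0.069 with the percentile over detected probes and -0.072 after removal of neighbouring spots, from -0.12. Between siRNA #8 and siRNA #7 the median of 0.18 went to 0.094 with the mean of probes and with either other filter on dim probes, and to 0.27 after removal of neighbouring spots. *MSMO1* and *STARD4*, which are dim, lost most under normexp with siRNA #7, and *GGPS1* and *SC5D* were not well above background with siRNA #8. The cause of these changes was not tested.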
